A study of Mus musculus with 2 samples.

Results

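Clock genes were examined in kidney RNA of mice with and without the gene *Cnnm2*, which encodes a magnesium transport protein of the distal nephron. The 10 genes, taken by their symbols, were *Arntl*, *Clock*, *Npas2*, *Nr1d1*, *Nr1d2*, *Dbp*, *Tef*, *Per1*, *Per2* and *Per3*, out of 31829 gene names on the array. All probes that carry one of these names were used, which gave 12 probes of 39429, each printed as 1 spot on each array. Kidneys came from 2-month-old mice. The knockout genotype was Cnnm2fl/fl;Six2-Cre, and the control genotype was Cnnm2+/+;Six2-Cre, so that both carried the Cre transgene and differed in the *Cnnm2* alleles. *Six2* is active in progenitors of the nephron in the embryonic kidney, and cells from other origins keep the floxed alleles. The mice lived in a 12-h light/dark cycle and received no treatment, and the hour at which the kidneys were taken is not given in the sources used here.

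RNA of both genotypes was hybridized together on 2 arrays of 2 colours. On array 1, knockout RNA was labeled with Cy5 and control RNA with Cy3, and array 2 had the reverse labeling. The sources used here state neither how many mice each RNA came from nor whether both arrays carried the same RNA. Therefore, each genotype had 1 replicate, the comparison of genotypes rests on a rule of size and not on a test, and each SD below is the spread of the 2 arrays, which may be technical. All ratios are log2 of the processed signal of the knockout over that of the control, so that 1 is a 2-fold higher and -1 a 2-fold lower signal in the knockout.

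The mammalian clock is a loop of transcription factors. CLOCK, or its close relative NPAS2, pairs with BMAL1, the product of *Arntl*, and the pair binds the E-box and drives the *Per*, *Nr1d1*, *Nr1d2*, *Dbp* and *Tef* genes. The PER proteins join the CRY proteins to inhibit the pair, while REV-ERBα and REV-ERBβ, encoded by *Nr1d1* and *Nr1d2*, bind RORE elements and repress *Arntl*. DBP and TEF are PAR bZIP factors that bind the D-box. In kidney and other organs, the mRNA of *Arntl* and that of *Dbp* and the *Per* genes peak at nearly opposite times of day, and many transport genes of the tubule follow the clock.

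These elements can be read in the DNA of the genes themselves. Windows of 300 bases around gene starts (250 before and 50 after) were available from RefSeq on GRCm38.p6 for 9 of the 10 genes, 14 windows in all. The E-box was searched as CACGTG, the D-box as TTATGNAA and the RORE as ANTAGGTCA, on both strands, and none of the matches overlapped another. The matches are shown because these elements connect the genes described below, with the motif in capitals and the strand of the gene.
*Per1*, E-box, chr11:69098771-69098800 (+): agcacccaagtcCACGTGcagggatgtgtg
*Tef*, E-box, chr15:81802534-81802563 (+): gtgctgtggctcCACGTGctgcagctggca
*Tef*, E-box at a second start, chr15:81811264-81811293 (+): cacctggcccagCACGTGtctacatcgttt
*Per3*, D-box, chr4:151044852-151044881 (-): cgacccgcgcgTTATGTAAggtactcgggg
*Per3*, D-box, chr4:151044805-151044834 (-): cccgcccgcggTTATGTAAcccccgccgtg
*Per1*, D-box, chr11:69098914-69098943 (+): agggcctggcaTTATGCAAcccgcctccca
*Arntl*, RORE, chr7:113207529-113207558 (+): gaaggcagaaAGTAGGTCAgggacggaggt
The E-box letters were found in 7.15% of all 32851 windows, the D-box letters in 3.38% and the RORE letters in 0.661%. The *Per1* E-box began 166 bases and its D-box 24 bases before the start. In *Per3*, the 2 D-boxes began 205 and 158 bases before the start. The *Arntl* RORE began 29 bases after the start. The windows of *Clock*, *Npas2*, *Nr1d1*, *Nr1d2* and *Dbp* held none of these letters. The arrays did not measure binding.

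The probes themselves decide what the arrays read of each transcript. Each probe has 60 bases, and its last 30 bases are given for the genes with 2 probes and for *Clock* and *Npas2*, which had the widest gap between the arrays among the detected members. Capitals mark the polyadenylation signal AATAAA, and positions are those of the files on mm9.
*Dbp*, brighter probe, chr7:52965322-52965381 (+): gaagaacgtcatgatgcagacaaatacatt
*Dbp*, dimmer probe, chr7:52965461-52965520 (+): caacacaatcctgAATAAAtcttgagaacc
*Nr1d2*, brighter probe, chr14:19036568-19036627 (-): tttgcaatataaagtttgctgaatgtaaaa
*Nr1d2*, dimmer probe, chr14:19037253-19037312 (-): tagttagggttagtatatacatgtatacac
*Clock*, chr5:76641377-76641436 (-): tgcacaaaaaggactgagaaaagactgctt
*Npas2*, chr1:39418941-39419000 (+): cgcaccctgtatacatttcagaactcctga
The dimmer *Dbp* probe holds AATAAA. The *Tef* probe (chr15:81657221-81657280) holds the variant ATTAAA. The *Nr1d1* probe has 60 bases, while its listed positions (chr11:98630526-98631028) span 503 bases, so its alignment to the genome is split. The exon annotation of mm9 was not used here.

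The deleted gene was read first. *Cnnm2* (A_55_P2167451) gave -2.88 (array 1) and -2.46 (array 2) on the log2 scale, lower in the knockout on both, as the labels state (mean -2.67 ± 0.30, SD). Each array held 43020 spots for genes, and 62.6% to 68.0% of them were well above background by the scanner software's call, depending on the channel. Genes were compared where both arrays gave such a signal for at least 1 and the same genotype, which left 19708 genes. Across these genes, which share the arrays and are not independent replicates, the ratios of array 1 and array 2 had a Pearson's r of -0.51 and a Spearman's rho of -0.56. The mean ratio, which removes an effect of the dye, had an SD across genes of 0.23. The dye contrast (array 1 minus array 2, divided by 2), which removes an effect of the genotype, had an SD of 0.40. All 17 marker genes of kidney cell types were detected. Of these, *Pvalb* and *Trpm6*, markers of the distal convoluted tubule, were at least 2-fold lower in the mean, while *Slc12a3*, a further marker of this segment, had log2 ratios of -0.78 and 0.19.

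None of the clock genes compared changed by the rule used, which was a mean of at least 2-fold with the same direction on both arrays. Among the 10 genes, 9 were well above background in all channels, and 0 of these 9 passed the rule, while 0.599% of all genes did (62 higher and 56 lower). The 9 means lay between -0.23 and 0.09, with a median of -0.10 beside -0.01 over all genes. At a mean of at least 1.5-fold, the count was again 0 of 9, and 2.06% of all genes passed. With shares this small, a count of 0 of 9 does not set the clock genes apart from other genes. The means of all 9 genes were smaller than the SD of the arrays, as were 79.3% of the means of all genes. The scanner's own error model gave an error of 0.14 to 0.22 for these 9 means, and 7 of the 9 lay within it, beside 70.8% of all genes.

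**Figure D1:**
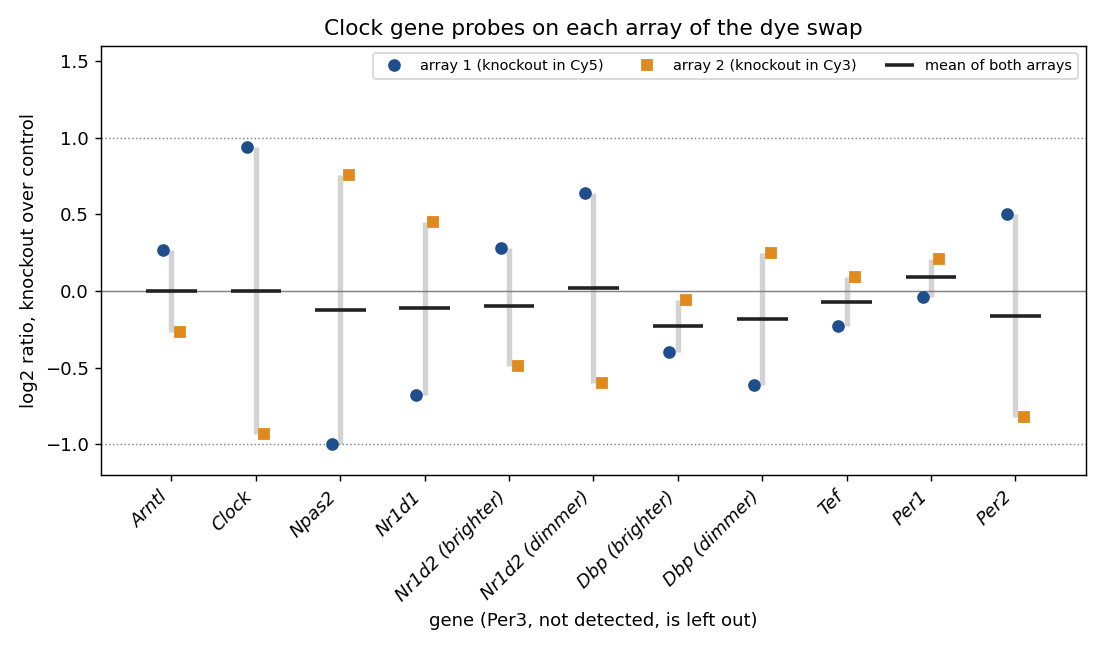
Log2 ratio of knockout over control (vertical axis) for the 11 probes of the 9 detected clock genes on array 1 (circles) and array 2 (squares), with the mean as a black bar and dotted lines at 2-fold. For all probes but the brighter one of *Dbp*, the arrays lie on opposite sides of 0, and the means of the genes (brightest probe) stay between -0.23 and 0.09.

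*Clock* showed how a single array would have read. In the Cy5 channel, its processed signal was 1294 in the knockout (array 1) and 1161 in the control (array 2), and in the Cy3 channel it was 608 in the knockout (array 2) and 673 in the control (array 1). The signal was thus high in both genotypes when they carried Cy5 and low in both when they carried Cy3. This gave a log2 ratio of 0.94 on array 1 and of -0.93 on array 2 (mean 0.00 ± 1.33, SD).

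*Arntl* (A_55_P2408588, chr7:120457261-120457320), the partner of *Clock* and the gene whose loss stops the clock, had processed signals of 1627 in the knockout and 1351 in the control on array 1. On array 2, they were 1269 and 1528. Again the sample in Cy5 was the brighter one on each array. The log2 ratio of *Arntl* was 0.27 and then -0.27, for a mean of 0.00 ± 0.38 (SD) with a scanner error of 0.15.

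*Npas2* was dim, with processed signals of 14.2 in the knockout and 28.2 in the control on array 1, and 34.2 and 20.1 on array 2, all well above background. Unlike *Clock*, it was brighter in Cy3. The log2 ratios were -1.0 and 0.76, and they averaged -0.12 ± 1.24 (SD). With normexp background correction and loess normalization, the ratios were -0.18 and 0.08, and the mean was -0.05. The activators therefore had means of 0.00, 0.00 and -0.12, against a span of 0.94 to -1.0 on array 1 alone.

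**Figure D2:**
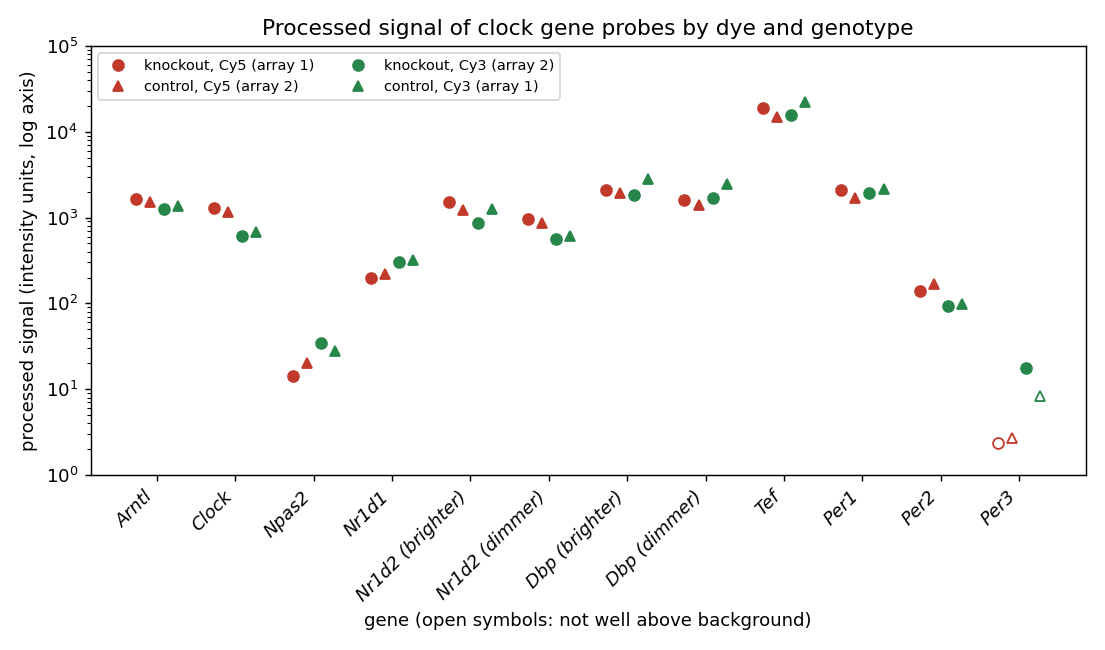
Processed signal (log axis, intensity units) of each clock gene probe in the 4 channels, with Cy5 in red and Cy3 in green, circles for the knockout and triangles for the control, and open symbols where the signal was not well above background. For *Arntl*, *Clock*, *Npas2*, *Nr1d1*, *Per2* and the dimmer probes of *Nr1d2* and *Dbp*, the points sort by colour and not by shape. Signals of different probes cannot be compared as levels of mRNA.

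*Nr1d1* encodes the repressor REV-ERBα. Array 1 gave a processed signal of 199 for the knockout and 318 for the control, and array 2 gave 299.7 and 219. Both Cy3 values were above both Cy5 values. Its log2 ratios were -0.68 and 0.45, and the mean was -0.11 ± 0.80 (SD).

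*Nr1d2*, which encodes REV-ERBβ, has 2 probes printed above, placed apart on chromosome 14. The brighter probe read 1525 in the knockout and 1256 in the control on array 1, and 872 and 1223 on array 2, with log2 ratios of 0.28 and -0.49 and a mean of -0.10 ± 0.54 (SD). The dimmer probe read 958 and 613 on array 1 and 561 and 853 on array 2, with log2 ratios of 0.64 and -0.60 and a mean of 0.02 ± 0.88 (SD). The probes shared the sign on each array, and their means differed by less than the SD of either. Thus, the REV-ERB genes had ratios of opposite sign on each array, with *Nr1d1* lower and *Nr1d2* higher in the knockout on array 1, while the means of their brightest probes were -0.11 and -0.10.

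*Dbp*, a clock output gene with a large daily swing in many organs, was the member with the lowest mean. Its brighter probe read 2117 in the knockout and 2792 in the control on array 1, and 1836 and 1916 on array 2. The knockout channel was the lower one each time (log2 ratios -0.40 and -0.06), and the mean of -0.23 ± 0.24 (SD) corresponds to 0.852 of the control signal. It was the 1 gene of the 9 with the same direction on both arrays, as were 27.7% of all genes (15.6% lower). The mean was 1.58 times its scanner error, and 16.8% of all genes had a mean of larger size.

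The dimmer *Dbp* probe, 139 bases further on, did not keep the direction. It read 1618 and 2462 on array 1 and 1681 and 1412 on array 2, for knockout and control in turn. Its log2 ratios were -0.61 and 0.25, and the mean was -0.18 ± 0.61 (SD). Both probes had a mean below 0, both smaller than the SD of the arrays.

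*Tef* encodes the other PAR bZIP factor of the list. The processed signal was 19126 for the knockout and 22430 for the control on array 1, and 15710 and 14774 on array 2. The groups overlapped, with log2 ratios of -0.23 and 0.09 and a mean of -0.07 ± 0.23 (SD). No spot of any gene was saturated.

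The *Per* genes encode the inhibitors of the loop. *Per1* (A_55_P1970033, chr11:68923364-68923423), whose start carries the E-box and D-box shown above, read 2099.9 in the knockout and 2165 in the control on array 1, and 1950 and 1681 on array 2. Its log2 ratios of -0.04 and 0.21 gave the highest mean of the 9 genes, 0.09 ± 0.18 (SD), within the scanner error of 0.14. *Per1* also had the smallest dye contrast in size, -0.13.

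*Per2* (A_51_P282760, chr1:93313046-93313105) was read at 140.5 in the knockout and 99.3 in the control on array 1, and at 94.3 and 167 on array 2. Both Cy5 values were the higher ones. Log2 ratios of 0.50 and -0.82 resulted, averaging -0.16 ± 0.93 (SD). The mean was 0.03 with normexp and loess, so its sign was not fixed by these data.

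*Per3* (A_51_P258493, chr4:150379256-150379315) was well above background in 1 of 4 channels, the knockout in Cy3 on array 2, where it read 17.4. The other channels, not well above background, read 2.39 for the knockout and 8.43 for the control on array 1 and 2.72 for the control on array 2. It was therefore not compared, and no ratio is given. A further probe, described in the files as a Period circadian protein homolog but named by an Ensembl transcript (ENSMUST00000101004, noticed after its values were seen), was well above background in 1 of 4 channels and was left out by the rule.

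Of the 9 genes, 8 had opposite directions on the arrays, that is, a dye contrast larger than the mean in size, and so did 72.3% of all genes. The dye contrast was 0.94 for *Clock*, -0.88 for *Npas2*, 0.66 for *Per2* and -0.56 for *Nr1d1*. In size, 3.11%, 3.80%, 8.55% and 12.4% of all genes had a larger one, in that order. These contrasts depended on the processing. With normexp and loess, they were 0.82 for *Clock*, -0.13 for the dim *Npas2*, 0.26 for *Per2* and -0.32 for *Nr1d1*. On array 1 alone, *Clock*, *Npas2* and *Nr1d1* differed at least 1.5-fold between the channels (3 of 9, against 16.9% of all genes), and on array 2 alone, *Clock*, *Npas2* and *Per2* did (3 of 9, against 12.9%). Each of these 4 genes had opposite signs on the arrays.

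**Figure D3:**
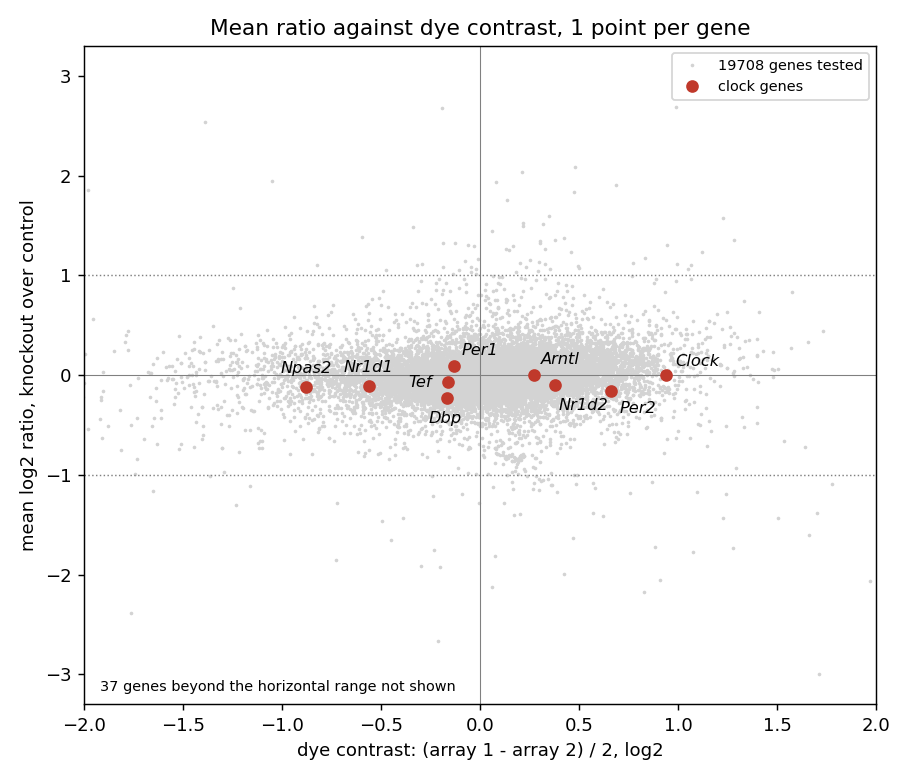
Mean log2 ratio of knockout over control (vertical axis) against the dye contrast (horizontal axis), with 1 grey point for each of 19708 genes, 37 of them outside the horizontal range, and the 9 detected clock genes in red. The clock genes spread from -0.88 to 0.94 along the dye axis and from -0.23 to 0.09 along the genotype axis.

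The base content of the probes moved with the dye contrast. Across 24566 probes, the dye contrast had a Pearson's r of -0.24 with the share of G and C, while the mean ratio had an r of -0.01, given as a description across probes that share the arrays. The 5 member probes with a positive contrast (*Arntl*, *Clock*, both of *Nr1d2* and *Per2*) had 35.0% to 40.0% G and C. The 6 with a negative contrast had 35.0% to 53.3%, so the ranges overlapped, and *Tef*, with 35.0%, had a contrast of -0.16. The part of base content in the contrast of the clock genes was not tested.

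Since the activator *Arntl* and the driven genes have opposite phases, the arms of the loop were read side by side. The means of the activators lay between -0.12 and 0.00. Those of the 6 detected other genes lay between -0.23 and 0.09, with a median of -0.11. The ranges overlapped. The mean was below 0 for 5 of these 6 genes, including *Per2* and *Nr1d2*, whose sign changed with the processing or the probe, and for 52.3% of all genes. The phase of the clock at dissection cannot be read from 1 time point.

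Signals were also processed in other ways. The 9 means lay between -0.19 and 0.09 with normexp and loess, between -0.22 and 0.09 with background-subtracted signals centred on the median, and between -0.21 and 0.09 with loess and no background correction. The deposited value table holds the scanner's ratios of the same processed signals, so it repeats the reported means (-0.23 to 0.09). With the processed signals and in each other processing, *Dbp* kept the same direction on both arrays, with a mean of -0.23 to -0.19. For *Per1*, the arrays gained a shared direction with normexp and loess (0.04 and 0.15) and with background-subtracted signals (0.15 and 0.03).

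**Figure D4:**
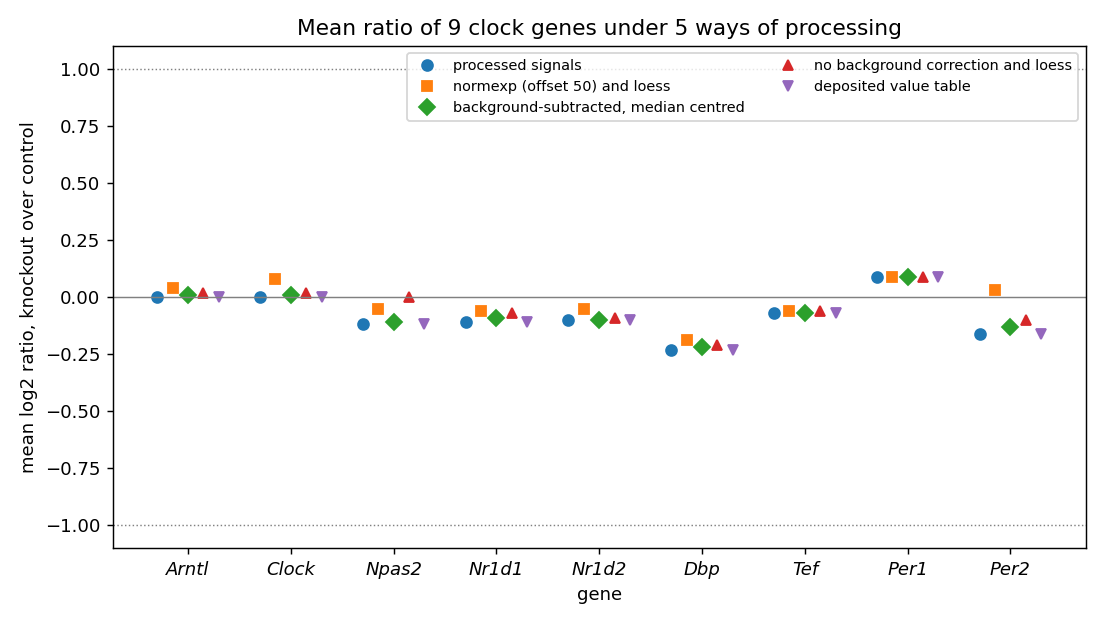
Mean log2 ratio of knockout over control (vertical axis) of the 9 detected clock genes under 5 ways of processing the same arrays, with dotted lines at 2-fold. Of these, the deposited value table repeats the processed signals. All values lie between -0.23 and 0.09, and *Per2* and *Npas2* shift the most between the ways.

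Of 15 other genes of the clock, 12 were detected, and 0 of these passed the 2-fold or the 1.5-fold rule. Their means lay between -0.31 and 0.33, with a median of -0.01. By the brightest probe, 1 was higher and 4 were lower on both arrays, beside 12.1% and 15.6% of all genes. *Csnk1e* and *Timeless* were among the 4 lower genes, but their dimmer probes (-0.56 and 0.48, and -0.41 and 0.04) did not keep the direction. *Cry1*, which encodes a partner of the PER proteins, had the widest gap of the 12, with log2 ratios of 1.06 and -0.97 and a mean of 0.04 ± 1.43 (SD). It was dim, with processed signals of 36.0 in the knockout and 17.3 in the control on array 1, and 11.1 and 21.7 on array 2. The knockout signal on array 2 was not well above background. *Rora*, which encodes an activator at RORE elements, had a mean of 0.08 ± 0.23 (SD). *Nfil3*, which encodes a repressor that competes with DBP and TEF at the D-box, was lower on both arrays (-0.53 and -0.09), with a mean of -0.31 ± 0.31 (SD). *Fbxl21*, an F-box protein gene that acts on the CRY proteins, was higher on both (0.51 and 0.15), with a mean of 0.33 ± 0.25 (SD), and its second probe had a mean of 0.45. *Hlf*, the remaining PAR bZIP gene, had a mean of 0.00 ± 0.15 (SD). *Gm129* (also known as *Ciart*), *Bhlhe41* and *Rorb* were not detected in either genotype on both arrays.

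**Figure D5:**
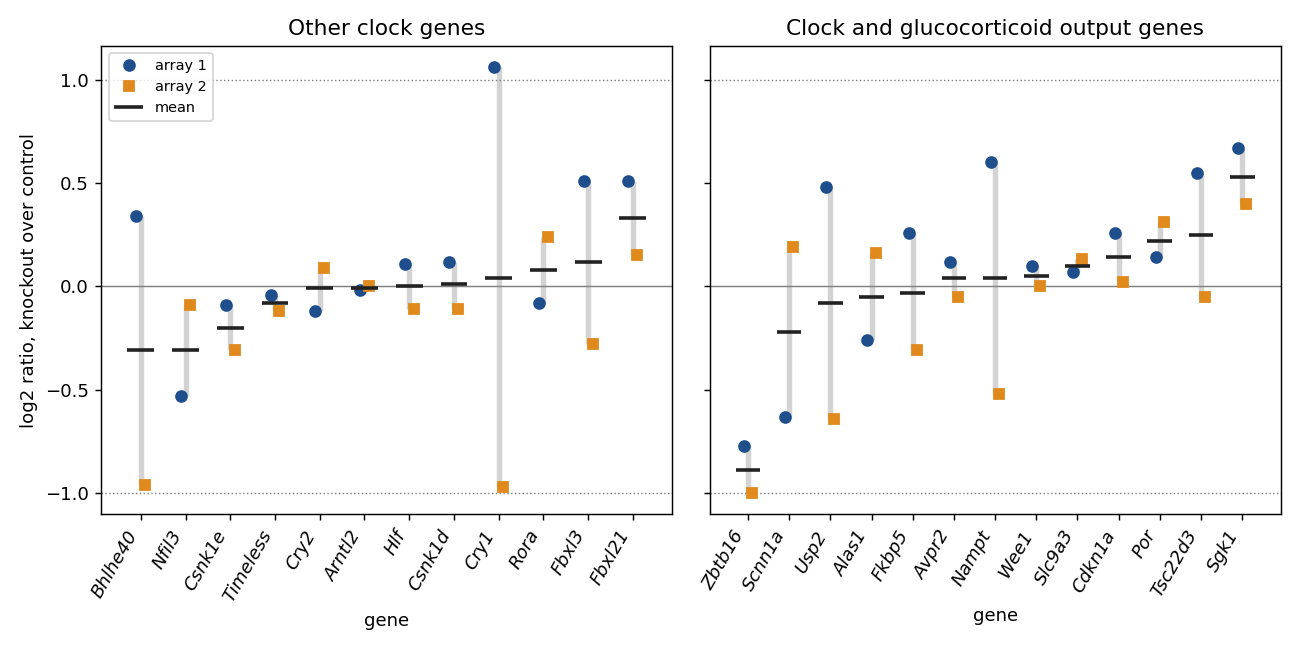
Log2 ratio of knockout over control on array 1 (circles) and array 2 (squares), with the mean as a bar, for the 12 detected other clock genes (left) and the 13 output genes (right), ordered by the mean. In the right panel, *Zbtb16* is low and *Sgk1* is high on both arrays, while the gap between the arrays is widest for *Cry1* in the left panel.

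Output genes, which follow the clock, glucocorticoid hormone or both in kidney, were described next. All 13 were detected, and 0 passed the 2-fold rule. In the mean, 1 of the 13 was at least 1.5-fold lower with the same direction on both arrays, beside 1.06% of all genes. This was *Zbtb16*, which encodes a zinc finger factor induced by glucocorticoids, with log2 ratios of -0.77 and -1.0 and a mean of -0.89 ± 0.16 (SD). *Sgk1*, a kinase gene induced by aldosterone and glucocorticoids, had log2 ratios of 0.67 and 0.40 and a mean of 0.53 ± 0.20 (SD), just under the 1.5-fold limit. *Tsc22d3* (GILZ), another glucocorticoid target, had 0.55 and -0.05, and *Fkbp5* had a mean of -0.03. *Usp2* and *Nampt*, driven by the clock, had means of -0.08 and 0.04, each with opposite signs on the arrays. The median of the 13 means was 0.04. On both arrays, 4 of the 13 were higher by the brightest probe (*Sgk1*, *Por*, *Slc9a3* and *Cdkn1a*) and 1 was lower (*Zbtb16*), beside 12.1% and 15.6% of all genes. Dimmer probes of *Slc9a3* (-0.84 and 0.28) and *Cdkn1a* (-1.01 and 0.50) did not keep the direction. That of *Cdkn1a* was well above background in 2 of 4 channels.

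Whole kidney holds other cell types, and a change in their share cannot be told apart from a change of RNA per cell. Of 14 marker symbols of leukocytes, red blood cells, fat and adrenal gland, 13 were on the array. Of these, 11 were detected, and 0 passed the 1.5-fold rule, with means between -0.50 and 0.13. Of the adrenal markers, *Cyp11a1* and *Cyp11b1* were not well above background in any channel, and *Star* was dim but well above background in 3 of 4 channels, with log2 ratios of 0.60 and -1.59.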

How the data were processed

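Total RNA of kidneys was labeled and hybridized on whole mouse genome arrays in a dye swap (1 array for each orientation). Per the file headers, the deposited intensity values come from Agilent Feature Extraction 10.7.3.1 (10.5.1.1 in the submitters' processing notes), whose processed signal is corrected for background and dye within each array. The authors also deposited log10 ratios, which in the series' table run as knockout over control (within 0.00492 of the scanner's log10 ratio, with array 2 turned).

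Spots marked as non-uniform or as outliers (141 and 175) were left out, spots of a probe were averaged, and the brightest probe stood for a gene in counts. The rule for named genes was all members, then 2 lists (other clock genes, and clock or glucocorticoid outputs), and *Cnnm2*. A gene of the first list is not reported here. Markers of kidney cells and of other tissues were also listed. The members and lists were chosen with earlier results of these data known. Alternatives were other background corrections, normalizations, limits, probes and single arrays, the methods' t-test and limma 3.58.1. The code was tested on simulated data. Analyses ran in R 4.3.3 and in Python 3.11.15 (scipy 1.17.1, pandas 2.3.3, numpy 2.4.6 and, for plots, matplotlib 3.10.9). The number of arrays limits the precision.

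All 10 symbols and 11 of the 12 probe accessions were found in the RefSeq gene table of GRCm38.p6.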

Additional observations from a re-analysis of the deposited data

How the results depend on the processing

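The count of 0 clock genes was 0 in all alternatives but 2. On array 2 alone it was 1 (*Per3*, on a signal not well above background in the control), and 0 on array 1 alone. Counting any size with the same direction gave 1 (*Dbp*). Several of the other alternatives could not have given another count. The scanner's ratios and the deposited value table repeat the main values, and stricter limits cannot raise a count of 0. The adjusted tests counted 0 of all genes. Apart from single arrays, the 9 detected clock genes gave 83 values under the alternatives, which lay within 0.191 of the mean reported. Many of the 83 repeat the reported value, because the setting left the spots and signals of these genes as they were. They are therefore not 83 separate checks. Of the 83, 3 shifted by over 0.1, to 0.03 for *Per2* (normexp and loess), 0.00 for *Npas2* (loess, no background correction) and 0.02 for *Nr1d2* (other probe). For all genes, the count of 118 was 15 with normexp and loess, 24 with loess and no background correction, 411 without a limit on dim probes, 64 with both genotypes above background, 406 at 1.5-fold, 48 at 2-fold on each array, 5458 at any size, 484 for the dye contrast, and 1458 to 1731 on single arrays. The methods' t-test at its threshold of 0.1, with a fold above 2, counted 36 genes, and 0 after Benjamini-Hochberg adjustment. limma counted 0 at an adjusted p under 0.05, with 256 genes at an unadjusted p under 0.05. Both tests take the 2 arrays as replicates, and limma's lowest adjusted p was 1.0, so its count of 0 says nothing about stability. Each ratio already pairs the genotypes on an array. No paired analysis was possible because, beyond this, each genotype has 1 replicate. Dim signals limit *Npas2* and *Per3* most, and a 2-fold change is the smallest size the rule counts.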
